A study of Mus musculus with 46 samples.

Results

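The amino acid transporter genes of 7 solute carrier families (Slc1, Slc3, Slc6, Slc7, Slc36, Slc38 and Slc43) were compared between cultured spermatogonial stem cells and pluripotent mouse cell lines. Every gene whose array symbol is one of these family names followed by "a" and a number was taken, without regard to its values, which gave 60 of the 19938 genes measured. The rule is one of family name, so it also takes in carriers of creatine, taurine, GABA and monoamines. It leaves out names that end in a further letter.

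Expression was read on 46 whole-transcript arrays, with 2 cultures of each of 23 lines in 8 groups. Germline stem (GS) cells, spermatogonial stem cells kept in culture, gave 3 lines (GS 1 to 3). The embryonic stem (ES) lines were R1, from a cross of a pair of 129 substrains, B6-6, from C57BL/6J, and BRC1, from a (B6xDBA2)x129 cross. Retroviruses carrying Oct4, Sox2, Klf4 and c-myc had given the induced pluripotent stem (iPS) lines 1, 2 and 5. Multipotent germline stem (mGS) cells are pluripotent cells derived from GS cultures, and mGS 1 and mGS 2 arose without added genes. The 4 induced routes had 3 lines each and all carried lentiviral knock-down of p53, joined with knock-down of Dnmt1 (Dnmt mGS), knock-down of Dmrt1 (Dmrt mGS), added Sox2 (Sox2 mGS) or added Oct4 (Oct4 mGS). All lines other than ES were of strain DBA/2 and carried a GFP transgene, so strain and ES origin cannot be told apart. The 7 groups other than GS, 20 lines in all, are called ES-like below.

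Amino acid carriers move amino acids across the plasma membrane or the lysosomal membrane, coupled to sodium or protons or in exchange for another amino acid. Some exchangers work only as a pair, a light chain of the Slc7 family with a heavy chain of the Slc3 family. Cells short of amino acids make more of the transcription factor Atf4, which raises the genes of several carriers and of amino acid synthesis, and lysosomal amino acids are sensed by the mTORC1 kinase pathway. Mouse ES cells are known for their dependence on amino acids such as threonine, proline and glutamine in the medium.

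The ES-like lines grew on feeder fibroblasts in a DMEM medium with serum, LIF and non-essential amino acids. GS lines grew on feeders in StemPro-34 with GDNF, basic FGF, L-glutamine, non-essential amino acids and less serum. Medium and cell type therefore cannot be told apart in any comparison with GS. In GS lines the summed intensity of 12 naive pluripotency markers was 2739 to 3347, against 18622 to 50139 in ES-like lines. That of 12 spermatogonial markers was 51922 to 64831, against 2300 to 4010. The sum of 20 feeder and fibroblast markers ranged from 5481 in Dnmt mGS 2 to 53256 in Sox2 mGS 3, and was 5896 to 20436 in GS lines, although cells had been plated on gelatin to remove feeders. Of these 20 markers 4 were called lower and 0 higher in GS than in the ES-like groups, of 11 testis somatic markers 1 lower and 0 higher, of 12 primitive endoderm markers 4 lower and 1 higher, and of 10 trophoblast markers 5 lower and 0 higher, where 21.5% of all genes were lower and 33.9% higher. In bulk RNA, fewer cells of a type and less RNA per cell cannot be told apart. Dnmt1 was at 620 and 647 in Dnmt mGS 1 and 3. The line labelled Dnmt mGS 2 had 2752, a value inside the span of the other ES-like lines (1934 to 2772). Dmrt1 was at 191 to 554 in Dmrt mGS lines, inside the span of the other ES-like lines (151 to 665). Sox2 was at 1807 in GS 1 and at 331 and 293 in GS 2 and 3, and its level in the lines labelled Sox2 mGS, at 1253 to 1303, was the lowest among ES-like lines (1689 to 5544 in the others). Whether the probe set reads the added Sox2 is not known. Pou5f1, the gene of Oct4, was at 4649 to 5248 in Oct4 mGS lines and 4042 to 5563 in the other ES-like lines. The median intensity of an array was 215.4 to 242.5, except for 264.8 in culture 1 of Oct4 mGS 1.

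Values are intensities, and differences are on the log2 scale with the standard error (SE) of limma, a linear model fitted to all genes, with the 2 cultures averaged so that n counts lines. A gene was called at a Benjamini-Hochberg adjusted p under 0.05 over all 19938 genes, and every adjusted p below comes from limma. As a background level the 95th percentile of 1015 olfactory receptor genes was used, 160.9. Of the 60 transporters, 28 had a group mean above it in all 8 groups, 12 in some groups and 20 in none. Where 1 side lay under this level, a fold is given as at least the other side's mean over 160.9.

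The comparison of GS with the mean of the 7 ES-like groups asks which carriers differ between the germline cells and all cells of pluripotent type. Slc7a3, a carrier of arginine and lysine, stood at 3256 in ES-like groups and under background in GS, and the Slc6a15, Slc7a7, Slc6a8, Slc1a3, Slc1a4 and Slc1a5 genes were also lower in GS. In the opposite direction, Slc36a4, Slc43a3, Slc6a9 and Slc38a9 were more than 2-fold higher in GS. In all, 20 of the 60 transporters were called higher in GS, where 33.9% of all genes were, and 14 were called lower, where 21.5% of all genes were. The share of transporters called was therefore near that of all genes, and the median difference was 0.05 for the transporters and 0.09 for all genes. Among calls with a fitted difference above 2-fold, 5 transporters were higher, against 6.47% of all genes, and 8 were lower, against 7.54% of all genes. Slc7a2 and Slc7a11 are among these 13 by their fitted values alone, since over the background level they are bounded only at 1.995-fold and 1.02-fold. Of the 20 calls higher in GS, 5 were of genes under background in all 8 groups (Slc36a3, Slc6a16, Slc6a18, Slc7a9 and Slc7a12), with differences of 0.18 to 0.49.

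**Figure D1:**
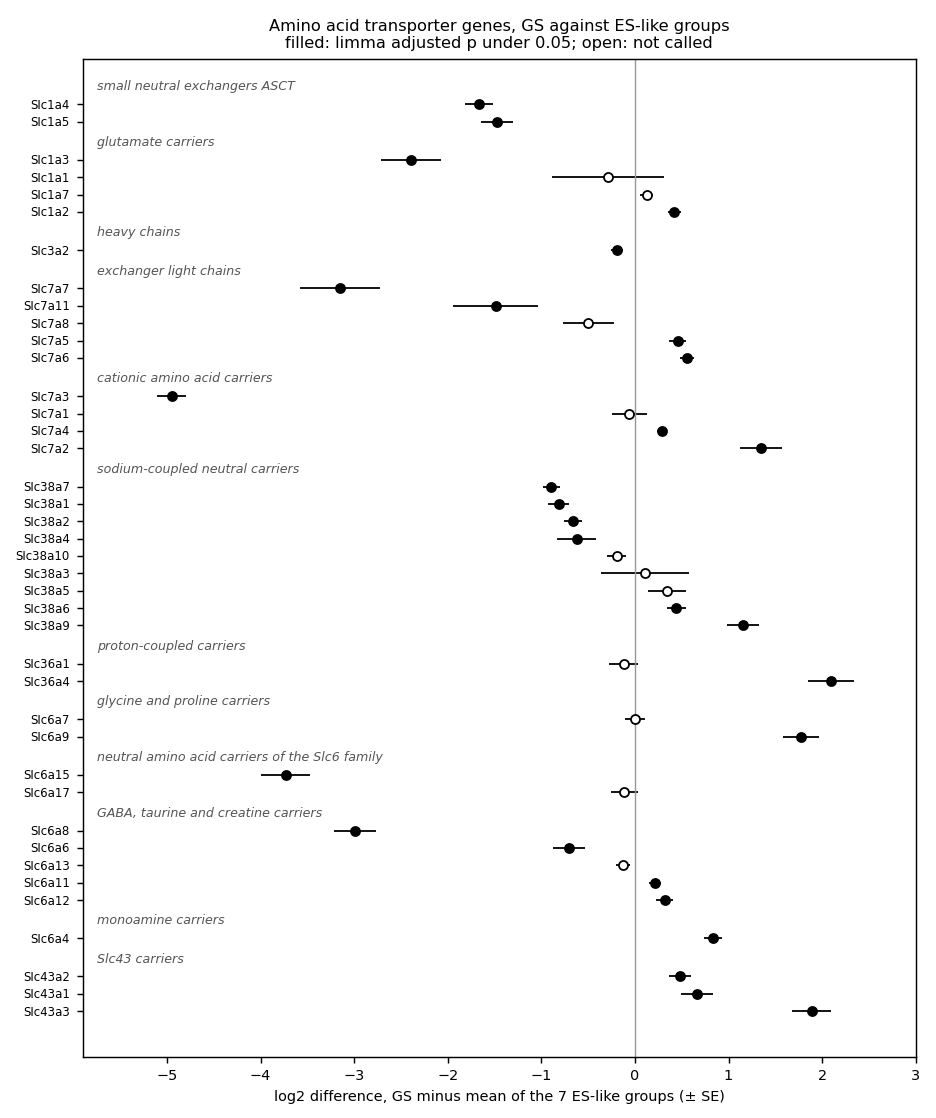
Log2 difference between GS and the mean of the 7 ES-like groups (x axis, bars are SE) for the 40 transporter genes above background in at least 1 group, arranged by role on the y axis. Slc7a3 lies farthest to the left at -4.95 and Slc36a4 farthest to the right at 2.09.

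No overlap between the 3 GS lines and the 20 ES-like lines was found for 11 transporters that were higher in GS, where 16.1% of all genes showed this, and for 8 that were lower, where 11.1% of all genes did. The 8 were Slc1a3, Slc1a4, Slc1a5, Slc6a8, Slc6a15, Slc7a3, Slc7a7 and Slc38a7. The 11 were Slc1a2, Slc6a4, Slc6a9, Slc7a2, Slc7a4, Slc7a5, Slc7a6, Slc7a9, Slc36a4, Slc38a9 and Slc43a3.

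Cationic amino acid carriers bring in arginine and lysine. Slc7a3 was at 96.3, 103 and 118 in GS 1 to 3 and ranged from 2318 in Dnmt mGS 3 through a median of 3261 to 5160 in Sox2 mGS 1 among the ES-like lines. All GS lines were under background and all ES-like lines far above it. The fitted difference was -4.95 ± 0.16 (adjusted p = 2.4e-14), and the ES-like mean was at least 20.2-fold the background level. Slc7a2, another carrier of cationic amino acids, was at 336, 352 and 280 in GS and at 75.5 to 244 in ES-like lines (median 128), with B6-6 ES the highest of these. GS lines were all higher than ES-like lines, most of which were under background, and the difference was 1.35 ± 0.22 (at least 1.995-fold, adjusted p = 5.4e-05). Slc7a1, the widely expressed member of this group, was at 1010 to 1338 in GS and 839 to 2005 in ES-like lines, which overlapped, and its difference of -0.06 ± 0.18 was not called (adjusted p = 0.8). Slc7a4 was higher in GS by 0.29 ± 0.05.

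Exchanger light chains pair with a heavy chain to swap amino acids. Slc7a7, which with Slc3a2 exports cationic amino acids in exchange for neutral ones, was at 175, 157 and 236 in GS. Among the ES-like lines it ranged from 368 in Dnmt mGS 2 to 2447 in Dmrt mGS 2, with a median of 2126. No line overlapped, although Dnmt mGS 1, Dnmt mGS 2 and Dmrt mGS 1 lay at 561, 368 and 447 and the other 17 ES-like lines at 1323 or above. The difference was -3.15 ± 0.42 (adjusted p = 4.8e-06). Its close relative Slc7a6 went the opposite way, with 1460, 1616 and 1753 in GS and 738 to 1428 in ES-like lines (median 1159). This gap was small but free of overlap, at 0.56 ± 0.07 (adjusted p = 4.5e-06).

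Slc7a11, which takes up cystine in exchange for glutamate, was at 68.9, 46.8 and 62.7 in GS and at 53.6 to 373 in ES-like lines (median 216). The lines overlapped, since ES R1, Dnmt mGS 1 and Dnmt mGS 2 lay within the GS range, and the difference was -1.49 ± 0.45 (at least 1.02-fold, adjusted p = 0.0095). This call was lost without GS 2, at -1.32. Slc7a5, the main carrier of leucine and other large neutral amino acids, was at 6240, 7136 and 6707 in GS and 4195 to 5932 in ES-like lines (median 4885). It was higher in GS without overlap, by 0.46 ± 0.09 (adjusted p = 0.00041). The heavy chain Slc3a2 differed by -0.19 ± 0.06 (adjusted p = 0.012), with 4633, 5357 and 5141 in GS and 5184 to 6962 in ES-like lines, and this call did not hold under quantile normalization (adjusted p = 0.4). Slc7a8, a light chain of the same type as Slc7a5, was not called (-0.50 ± 0.27, adjusted p = 0.13), with 119 to 198 in GS and 103 to 590 in ES-like lines.

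In the upstream sequence, Slc7a11 and Slc7a7 hold the CCAAT-enhancer-binding protein and Atf response element (CARE), the motif through which Atf4 acts. Its core was searched as TGATGNAA on both strands in the 250 bases before each start in the RefSeq promoter table (GRCm38.p6), which holds 43 of the 60 transporters. The motif was in 3.45% of all 32851 windows and in 3.91% of all 27025 genes. Among the transporters, 3 of 43 held it, Slc6a21 (under background in all groups) being the third, in 4 of their 64 windows. Slc7a11 and Slc7a7 were called lower in GS and Slc6a21 was not called. A part of Atf4 in these levels was not tested. The windows of Slc7a11 and Slc7a7 are shown with motif matches in capitals, read 5' to 3' on the gene's strand. Slc7a11 is at chr3:50443614-50443863 (minus strand) and its matches start 66 and 47 bases before the start site, on opposite strands. The windows of Slc7a7 are at chr14:54417703-54417952 and chr14:54417945-54418194 (minus strand), with matches that start 243 and 141 bases before their start sites, and 3 other windows of this gene had no match.
Slc7a11: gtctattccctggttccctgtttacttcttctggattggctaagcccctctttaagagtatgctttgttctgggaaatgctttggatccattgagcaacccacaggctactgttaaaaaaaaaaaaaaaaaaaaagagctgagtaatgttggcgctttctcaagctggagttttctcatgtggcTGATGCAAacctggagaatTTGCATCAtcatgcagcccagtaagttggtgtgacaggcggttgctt
Slc7a7, first window: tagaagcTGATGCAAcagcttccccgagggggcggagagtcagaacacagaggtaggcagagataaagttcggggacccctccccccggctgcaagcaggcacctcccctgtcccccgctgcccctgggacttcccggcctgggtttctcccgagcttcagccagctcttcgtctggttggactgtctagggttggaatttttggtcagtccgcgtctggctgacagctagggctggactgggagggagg
Slc7a7, second window: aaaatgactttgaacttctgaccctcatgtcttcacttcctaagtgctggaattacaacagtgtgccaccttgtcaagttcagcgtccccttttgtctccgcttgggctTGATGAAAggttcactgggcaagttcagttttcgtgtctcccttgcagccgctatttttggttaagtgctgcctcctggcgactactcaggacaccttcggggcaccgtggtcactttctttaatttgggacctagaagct
A match of letters describes the sequence and does not show that a factor binds there.

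Small neutral amino acid exchangers of the Slc1 family carry alanine, serine, cysteine and, for Slc1a5, glutamine. Slc1a5 was at 695, 696 and 638 in GS and at 714 in ES R1 to 2951 in Dnmt mGS 1 among the ES-like lines (median 1991). GS lines were the lowest of all, but ES R1 came close to them, and the difference was -1.47 ± 0.17 (adjusted p = 8.2e-07). Slc1a4 was at 251, 255 and 227 in GS and 344 to 1226 in ES-like lines (median 851), again without overlap, and differed by -1.67 ± 0.15 (adjusted p = 3.5e-08). Of the 5 glutamate carriers, Slc1a3, best known from glia, was called lower in GS and Slc1a2 higher. Slc1a3 was at 72.8, 74.6 and 79.7 in GS and 134 to 654 in ES-like lines (median 464). There was no overlap, and the difference of -2.40 ± 0.32 (adjusted p = 4.4e-06) amounted to at least 2.48-fold. Slc1a2 differed by 0.42 ± 0.07, while Slc1a1 was not called (-0.29 ± 0.60, adjusted p = 0.7), with its ES-like lines spread over a 17.3-fold range.

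The Slc6 family couples uptake to sodium and chloride. Slc6a15, a carrier of branched-chain amino acids and proline, was at 36.1, 33.3 and 30.4 in GS and 231 to 747 in ES-like lines (median 450). All GS lines were under background, and the difference was -3.73 ± 0.26 (at least 2.74-fold, adjusted p = 1.1e-09). Slc6a8, the creatine carrier, was at 250, 137 and 137 in GS, GS 1 being the high one, and at 1001 to 2461 in ES-like lines (median 1244). It differed by -2.99 ± 0.22 (adjusted p = 2.5e-09). The taurine carrier Slc6a6 differed by -0.70 ± 0.17 (adjusted p = 0.0018), but its lines overlapped. They were at 839 to 2011 in GS, where GS 1 was again the high one, and at 1461 to 2643 in ES-like lines (median 2010). Slc6a9, the glycine carrier GlyT1, ran the other way with 2101, 1643 and 1598 in GS and 239 to 919 in ES-like lines (median 528). Every GS line was above every ES-like line, at a difference of 1.77 ± 0.19 (adjusted p = 3.6e-07). The serotonin carrier Slc6a4, not a carrier of amino acids, was at 240, 326 and 306 in GS and at 124 to 182 in ES-like lines (median 165), free of overlap, with a difference of 0.83 ± 0.10 (adjusted p = 8e-07). Among the other Slc6 genes the GABA and betaine carriers Slc6a11 and Slc6a12 were called higher in GS by 0.21 ± 0.06 and 0.32 ± 0.09.

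Sodium-coupled neutral amino acid carriers (Slc38) were split, with 4 of 11 called lower in GS, 2 called higher and 5 not called. Lower were Slc38a1 (-0.82 ± 0.11), Slc38a2 (-0.66 ± 0.10) and Slc38a4 (-0.62 ± 0.20), which work at the plasma membrane, and Slc38a7 (-0.89 ± 0.09), which exports glutamine from lysosomes. Lines overlapped for all but Slc38a7. The highest GS line and lowest ES-like line were at 1815 and 1698 for Slc38a1, 3720 and 3271 for Slc38a2, and 2138 and 994 for Slc38a4. Group by group against GS, Slc38a2 was not called in Dnmt mGS (adjusted p = 0.26). Slc38a4 was not called in mGS, Sox2 mGS or Oct4 mGS. Slc38a9, the lysosomal arginine sensor that acts on mTORC1, was at 2170, 1887 and 1919 in GS and at 414 to 1358 in ES-like lines (median 984). It was higher in all GS lines, by 1.15 ± 0.17 (adjusted p = 1.3e-05). A second probe set of Slc38a1 and of Slc38a9 gave the same direction. Slc38a6 was called higher in GS by 0.44 ± 0.10.

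Genes of the Slc36 family, grouped here as proton-coupled carriers, encode proteins that move amino acids out of lysosomes or into the cell. Slc36a4, with high affinity for proline and tryptophan, was at 1430, 1857 and 2172 in GS and at 210 to 980 in ES-like lines (median 412). Its GS lines were all above the ES-like lines, of which Sox2 mGS 1 was the highest, and it differed by 2.09 ± 0.25 (adjusted p = 9e-07). Slc36a1, the lysosomal member, was not called (-0.12 ± 0.15, adjusted p = 0.53). All 3 Slc43 genes were called higher in GS. Slc43a3, of the LAT3 family but known as a carrier of purine bases, was at 2310, 3113 and 3049 in GS and 365 to 1676 in ES-like lines (median 774), a difference of 1.89 ± 0.21 (adjusted p = 3.8e-07) without overlap. Slc43a1, which carries large neutral amino acids, was at 545, 687 and 544 in GS and 194 to 549 in ES-like lines (median 398), so that the lines just overlapped at a difference of 0.67 ± 0.17 (adjusted p = 0.0028). Slc43a2 differed by 0.48 ± 0.12.

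**Figure D2:**
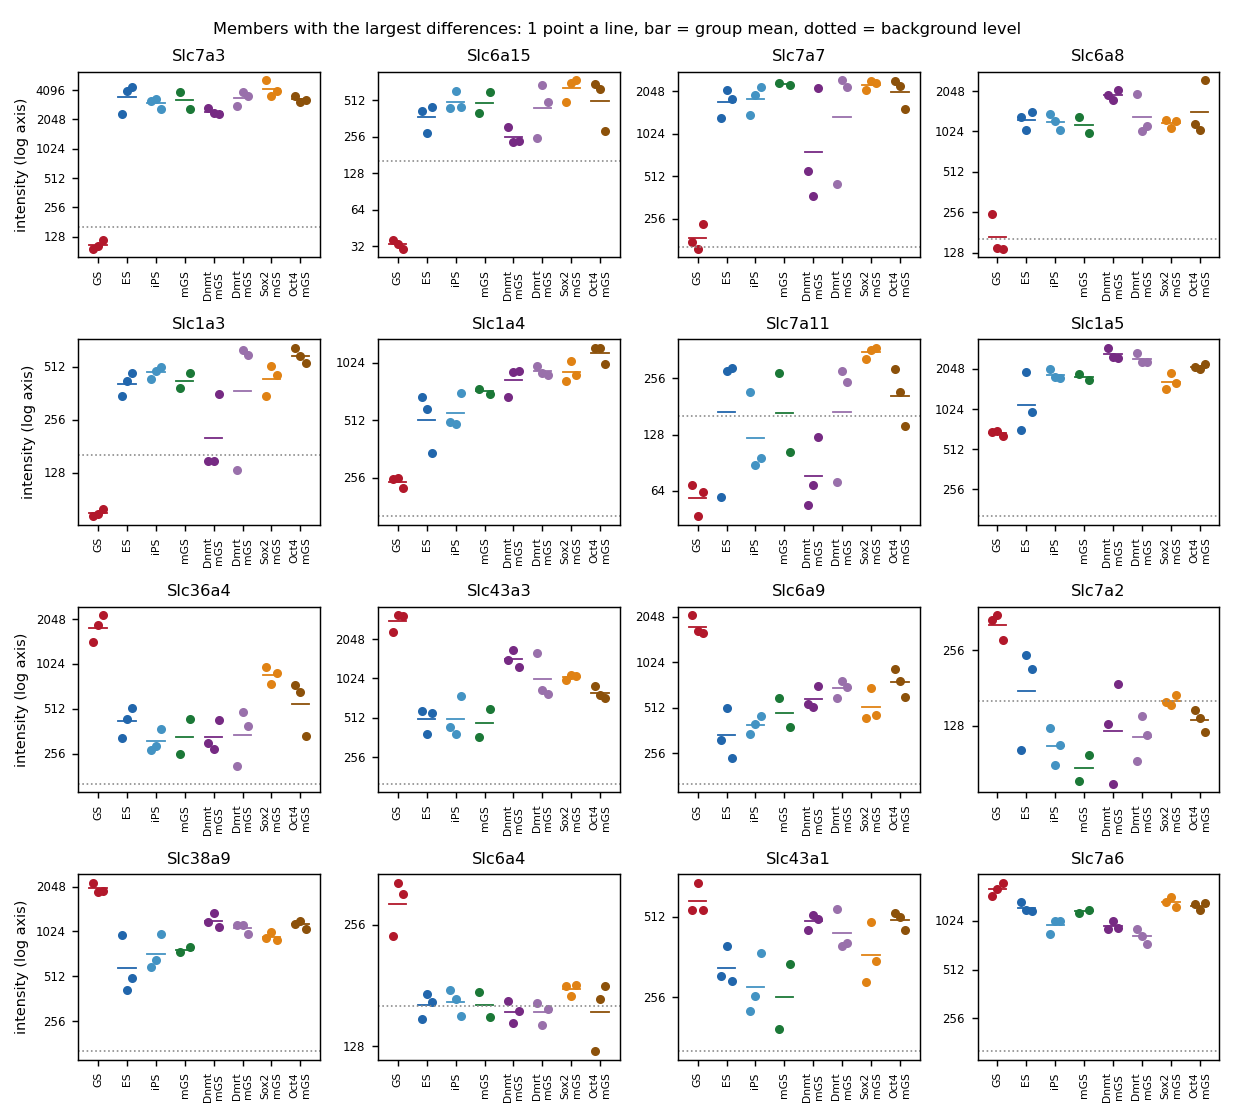
Intensity on log axes (y) of the 8 transporters lowest and the 8 highest in GS, by group (x); each point is a line, the bar is the group mean and the dotted line is the background level of 160.9. GS points lie apart from all others for Slc7a3, Slc6a15 and Slc36a4, while those of Slc7a11 and Slc43a1 reach into the ES-like range.

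Each ES-like group was also set against GS on its own, with the same 3 GS lines in every comparison, so the results are given side by side and not as repeats of each other. In GS against ES, 17 transporters were called higher, where 26.0% of all genes were, and 13 lower, where 17.2% of all genes were. In GS against iPS the counts were 21 higher, against 35.5% of all genes, and 12 lower, against 18.5% of all genes. In spontaneous mGS against GS, 11 were called higher (16.2% of all genes) and 17 lower (26.9% of all genes). Dnmt mGS against GS gave 14 higher (19.1% of all genes) and 16 lower (30.0% of all genes). Dmrt mGS against GS gave 13 higher (17.6% of all genes) and 12 lower (24.1% of all genes). In Sox2 mGS against GS, 17 were higher (19.4% of all genes) and 14 lower (24.7% of all genes), and in Oct4 mGS against GS, 19 were higher (20.2% of all genes) and 12 lower (22.7% of all genes). Slc7a3 differed by -5.04 ± 0.21 between GS and ES and by -4.84 ± 0.21 between GS and iPS, and was higher than in GS by 4.93 (mGS), 4.55 (the Dnmt route), 5.02 (Dmrt), 5.31 (Sox2) and 4.97 (Oct4). Slc36a4 was below GS by a smaller amount in Sox2 mGS (-1.04 ± 0.32, adjusted p = 0.013) than in Dnmt mGS (-2.44 ± 0.32, adjusted p = 6.4e-06), and the test of that route against the others is given below. Slc43a3 was 2.49 higher in GS than in ES and 2.49 higher than in iPS, and differed from GS by -0.96 ± 0.27 in Dnmt mGS (adjusted p = 0.0074).

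Whether the ES-like groups differ among themselves was asked with an F test over the 7 groups. It called 19 of the 60 transporters, where 29.4% of all genes were called. Slc6a17, a carrier of neutral amino acids in synaptic vesicles, had the largest F among members above background (14.4, adjusted p = 0.00054), with group means from 123 in iPS to 322 in Sox2 mGS. Slc7a6 ranged from 821 in Dmrt mGS to 1335 in Sox2 mGS (adjusted p = 0.00057). Slc38a7 went from 704 in ES to 1253 in Oct4 mGS (adjusted p = 0.0011) and Slc43a3 from 469 in mGS to 1441 in Dnmt mGS (adjusted p = 0.0018). The lowest group of both Slc1 exchangers was ES, at 516 for Slc1a4 (highest 1147 in Oct4 mGS, adjusted p = 0.0034) and 1103 for Slc1a5 (highest 2637 in Dnmt mGS, adjusted p = 0.0081). In iPS against ES itself, limma called 0 of the 60, where 0.627% of all genes were called, and 6 had an unadjusted p under 0.05, where 12.9% of all genes did. Without ES R1 the count was 4 and without ES B6-6 it was 1, with the share of all genes in these refits not given.

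The 4 induced routes were then compared, each against the mean of the other 3, so that GS drops out and the shared p53 knock-down is on both sides. Dnmt mGS had 3 transporters called higher, where 8.86% of all genes were, and 10 called lower, where 10.4% of all genes were. Slc1a1, a carrier of glutamate and cysteine, was at 1053, 1323 and 282 in Dnmt mGS 1 to 3, at 967, 80.2 and 86.0 in Dmrt mGS 1 to 3, at 78.9 to 105 in Sox2 mGS and at 104 to 228 in Oct4 mGS. Dmrt mGS 1 lay among the Dnmt mGS lines and the groups overlapped. The difference was 2.48 ± 0.64 (at least 4.55-fold, adjusted p = 0.016). Slc38a2 was at 3271, 4437 and 4507 in Dnmt mGS 1 to 3 and at 4391 to 6399 in the other routes, overlapping only with Dmrt mGS 1. Slc6a15 was at 311, 231 and 236 in Dnmt mGS and at 250 to 747 in the other routes, where Dmrt mGS 1 and Oct4 mGS 3 were low. For both, then, Dmrt mGS 1 was the lowest line of the other routes. Slc36a1 (0.57 ± 0.17) and the proline carrier Slc6a7 (0.50 ± 0.12) were also called higher. Called lower were Slc7a11 (-1.59 ± 0.48, at least 1.44-fold), Slc1a3 (-1.19 ± 0.34), Slc6a15 (-1.02 ± 0.28), Slc6a17 (-0.74 ± 0.16, at least 1.37-fold), Slc7a3 (-0.55 ± 0.17), Slc38a2 (-0.53 ± 0.10), Slc38a1 (-0.52 ± 0.12), Slc1a6 (-0.38 ± 0.11), Slc6a11 (-0.25 ± 0.07) and Slc7a6 (-0.24 ± 0.08). Of these, Slc1a6, a glutamate carrier, was under background in all 8 groups. Of the 12 naive pluripotency markers, 5 were called higher in Dnmt mGS than in the other routes and 0 lower (median 0.89), and their part in these calls was not tested. The counts rest on few lines, with 0 of 60 called without Dnmt mGS 1, 4 without the line labelled Dnmt mGS 2 and 19 without Dmrt mGS 1. The share of all genes called in these refits is not given, so the changes are not a result about transporters.

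Sox2 mGS had 4 transporters called higher, where 5.99% of all genes were, and 3 called lower, where 8.16% of all genes were. Naive pluripotency markers moved with this route too, with 4 of 12 called lower and 0 higher (median -0.94) and summed levels of 18645 to 29094, against 18622 to 50139 in the other routes. Their part in the calls was not tested. Slc6a17 was at 363, 253 and 362 in Sox2 mGS 1 to 3, at 238 to 266 in Oct4 mGS 1 and 2 and at 194 in Oct4 mGS 3, and at 101 to 189 in the Dnmt mGS and Dmrt mGS lines. Sox2 mGS 2 overlapped with Oct4 mGS 1, and the difference was 0.97 ± 0.16 (adjusted p = 0.001). Slc36a4 was at 980, 756 and 887 in Sox2 mGS, above the 738, 668 and 337 of Oct4 mGS and the 210 to 486 of the other routes. It did not overlap with them and was higher by 1.14 ± 0.26 (adjusted p = 0.01). Slc7a6 (0.42 ± 0.08) and Slc6a11 (0.23 ± 0.07) were also called higher. Slc38a4, an imprinted gene for a neutral amino acid carrier, was at 2014, 1753 and 994 in Sox2 mGS and 1903 to 3832 in the other routes, with Oct4 mGS 2 inside the Sox2 mGS range, and was lower by a difference of -0.93 ± 0.22 (adjusted p = 0.012). Slc7a1 (-0.67 ± 0.20) and Slc38a7 (-0.42 ± 0.10) were called lower as well. Without Sox2 mGS 3 the count of 7 fell to 2 (share of all genes not given), while Slc6a17 and Slc7a6 were called whichever single line was left out. Dmrt mGS had 1 call, Slc7a6 (-0.51 ± 0.08, adjusted p = 0.016), where 0.316% of all genes were called, and this call was lost without Dmrt mGS 2 or Dmrt mGS 3. In Oct4 mGS limma called 0, where 1.06% of all genes were called, and 12 had an unadjusted p under 0.05, where 16.6% of all genes did.

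**Figure D3:**
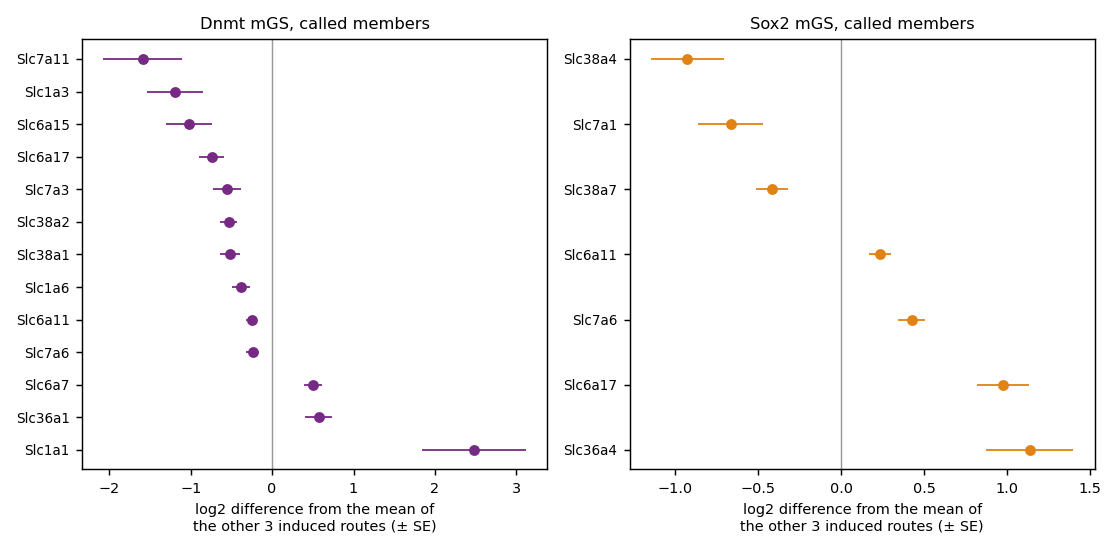
Log2 difference from the mean of the other 3 induced routes (x axis, bars are SE) for the 13 transporters called in Dnmt mGS and the 7 called in Sox2 mGS. Slc1a1 at 2.48 is the only one of the 13 with a difference above 1, and Slc36a4 at 1.14 that of the 7.

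A few carriers ranged widely among the 20 ES-like lines, between and within groups. Among members above background in at least 1 group, the ratio of the highest to the lowest ES-like line was 17.3 for Slc1a1, 8.62 for Slc38a3, 6.96 for Slc7a11, 6.64 for Slc7a7, 5.70 for Slc7a8 and 4.89 for Slc1a3, which were picked for this range. Dnmt mGS 1, Dnmt mGS 2 and Dmrt mGS 1 were the 3 highest lines for Slc1a1 and the 3 lowest ES-like lines for Slc7a7, Slc1a3 (150, 150 and 134) and the glutamine carrier Slc38a3 (139, 64.8 and 67.4). Their feeder marker sums were 11753, 5481 and 6069, with 16, 9 and 10 of the 20 markers above background, against sums of 34629 in Dnmt mGS 3 and 27585 and 22910 in Dmrt mGS 2 and 3. Low sums were also found in iPS lines (7340 to 10462), mGS 1 (6610) and ES R1 (8839). In the iPS lines and mGS 1, Slc7a7 stood at 1388 to 2348, Slc1a3 at 387 to 510 and Slc1a1 at 86.9 to 169. ES R1 had Slc7a7 at 1126 and 1555 in its 2 cultures, Slc1a1 at 470, Slc1a3 at 348 and Slc38a3 at 292. The part of feeder RNA in these line differences was not tested. In Sox2 mGS the sums were the highest, 38014 to 53256, and 16 of the 20 markers were called higher than in GS, where 19.4% of all genes were. With a feeder score added to the fit as a covariate, 6 transporters were called in Dnmt mGS and 2 in Sox2 mGS against the other routes. The share of all genes called in that fit is not given. In that fit Slc1a1 in Dnmt mGS was at 1.37 (adjusted p = 0.027), Slc7a11 at -1.08 (adjusted p = 0.13) and Slc1a3 at -0.69 (adjusted p = 0.097), while in Sox2 mGS Slc6a17 was at 0.69 (adjusted p = 0.0062) and Slc36a4 at 0.67 (adjusted p = 0.092). For GS against the ES-like groups, all 16 differences of the lowest and highest members kept their call in it, with Slc7a11 at -1.05 (adjusted p = 0.044).

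**Figure D4:**
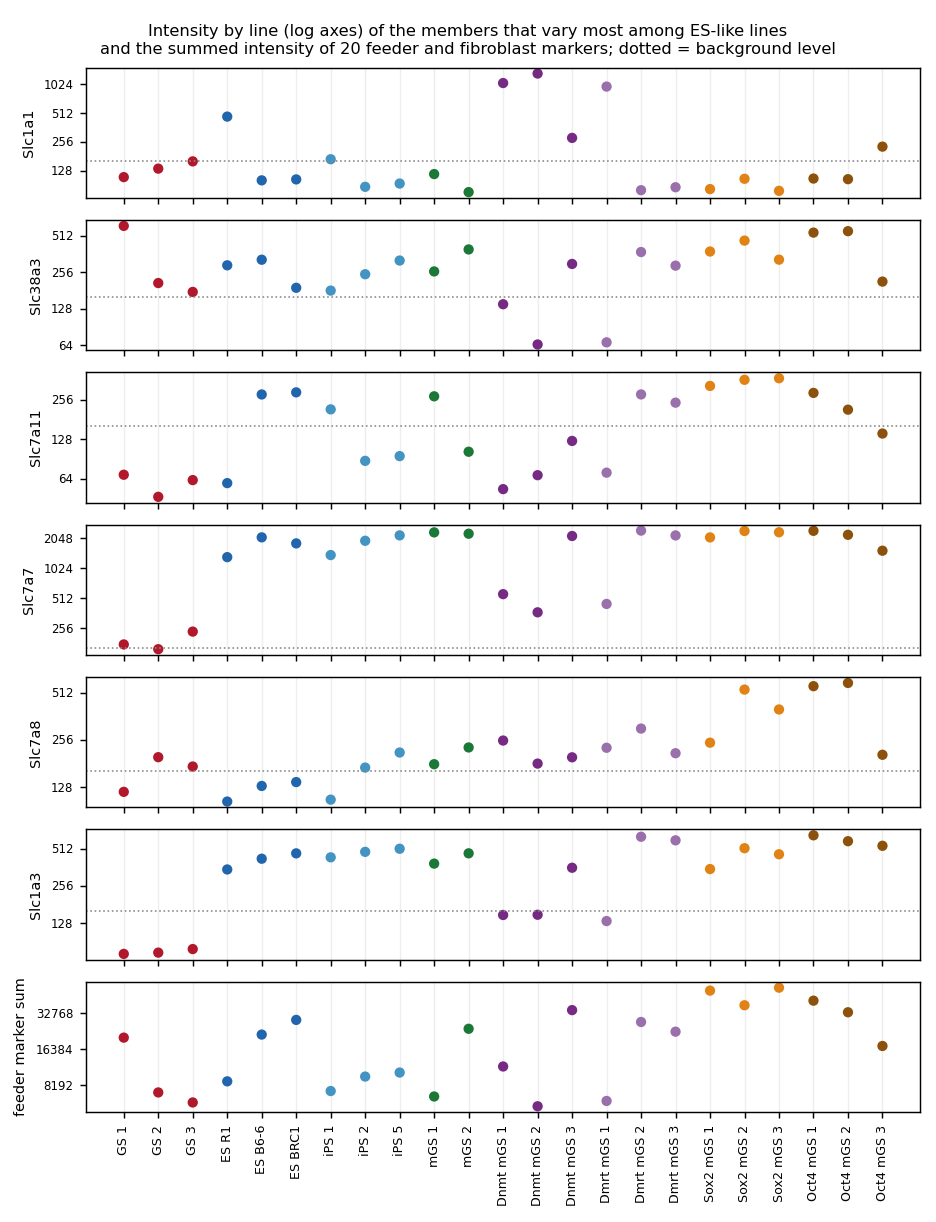
Intensity on log axes (y) in each of the 23 lines (x) for the 6 transporters with the widest range among ES-like lines, and in the lowest panel the summed intensity of 20 feeder and fibroblast markers. Dnmt mGS 1, Dnmt mGS 2 and Dmrt mGS 1 are high for Slc1a1 and low for Slc38a3, Slc7a7 and Slc1a3.

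Genes that make, break down or sense amino acids were read from lists chosen with the transporters, when earlier results of these data were known. The amino acid response and serine synthesis list holds Atf4, many of its targets, its partner Cebpg and the kinase Eif2ak4. Of its 25 measured members, 19 were called lower in GS than in the ES-like groups (21.5% of all genes were), 2 higher (33.9% of all genes were) and 4 were not called. The median difference was -0.98, against 0.09 for all genes. Cth, which makes cysteine, was at 169 in GS and 1921 in ES-like groups (-3.51 ± 0.22). Under background in GS were Chac1, which breaks down glutathione (at least 5.49-fold lower), Cbs, which works in the same path as Cth (at least 3.08-fold lower), and the secreted factor Stc2 (at least 2.41-fold lower). Atf4 was itself lower (986 against 2160, -1.13 ± 0.10, adjusted p = 2.8e-08), as was the asparagine synthetase gene Asns (-1.65 ± 0.15). Higher in GS were Cebpg (0.62 ± 0.08), whose protein pairs with Atf4, and Eif2ak4 (0.44 ± 0.12), the kinase that senses missing amino acids. The summed intensity of the list was 15845 to 17472 in GS lines and 26479 to 39784 in ES-like lines, without overlap.

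**Figure D5:**
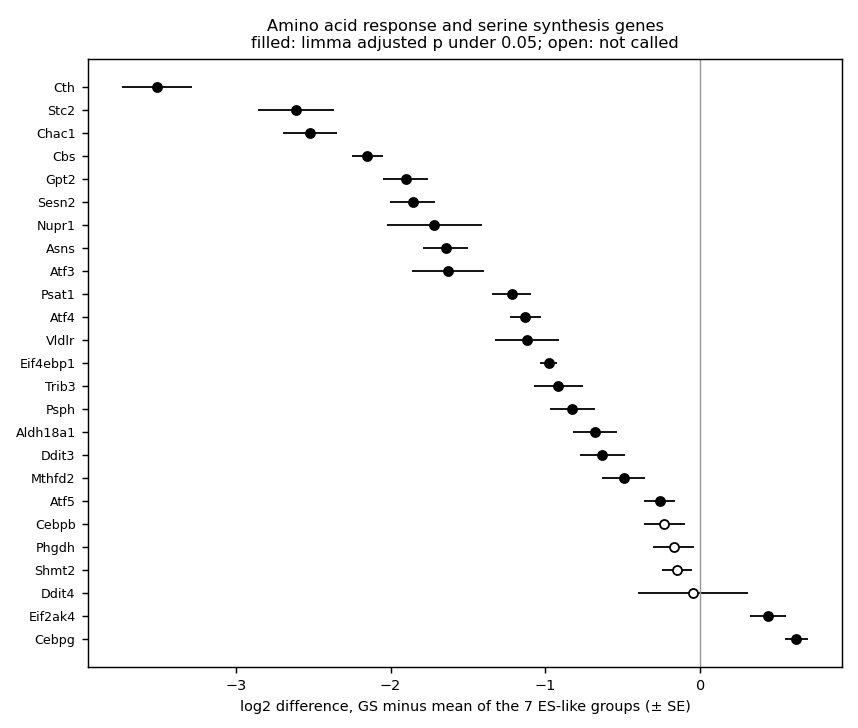
Log2 difference between GS and the mean of the 7 ES-like groups (x axis, bars are SE) for the 25 genes of the amino acid response and serine synthesis list (y axis). Fitted values are plotted, also for genes under background in GS, and Cth is at -3.51, while Cebpg and Eif2ak4 are the only called genes to the right of 0.

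Of 24 amino acid response genes in the promoter table, 6 held the CARE letters in the window before a start site, where 3.91% of all genes did. Among them were Asns, Atf3 and Chac1. The list was drawn up around Atf4 and its targets, so this count does not bear on the differences in GS. Amino acid breakdown and glutamine use had 13 of 19 measured genes called lower in GS, where 21.5% of all genes were, and 2 higher, where 33.9% of all genes were, with a median of -0.54 against 0.09 for all genes. Bcat1 and Bcat2, which start the breakdown of branched-chain amino acids, were under background in GS and at least 15.4-fold and 7.80-fold lower. In the glycine cleavage system, Amt was under background in GS and at least 6.97-fold lower, and Gldc differed by -2.85 ± 0.14. Higher were Glul (0.92 ± 0.15), which makes glutamine, and Arg2 (at least 1.48-fold), which splits arginine and was under background in ES-like groups.

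Of 25 lysosomal amino acid sensing and mTORC1 genes, 12 were called higher in GS, where 33.9% of all genes were, and 7 lower, where 21.5% of all genes were, with a median of 0.24. Rragd (1.66 ± 0.21) and Mtor (1.17 ± 0.08) were highest, while Castor1 (-2.66 ± 0.21), which senses arginine, and Rragb (-1.33 ± 0.16), a relative of Rragd, were lowest. Among 19 measured amino acid carriers of other families and partners, 4 were called higher (33.9% of all genes) and 6 lower (21.5% of all genes), with a median of 0.02. The mitochondrial serine carrier Sfxn1 (-2.96 ± 0.12) and the mitochondrial aspartate and glutamate carrier Slc25a13 (-1.96 ± 0.19) were lowest, and Slc17a7, a vesicular glutamate carrier, was highest (1.09 ± 0.16).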

How the data were processed

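The deposited table held linear intensity, and the authors' scaling is not stated in the labels. Of assemblies, mm9 stands in the submitters' processing notes. The 28856 probe sets of the 46 arrays had values of 16 to 27420. A single gene symbol was required, which 21789 probe sets had, while 1621 had several and 5446 none, and the probe set with the highest mean stood for each of 999 genes with more than 1, which gave 19938 genes. The cultures of a line were averaged after log2 (pair correlations 0.981 to 0.998).

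All 23 lines entered a single limma fit (lmFit and eBayes, limma 3.58.1, R 4.3.3, 15 residual and 2.71 prior degrees of freedom), with Benjamini-Hochberg adjustment over all genes within each comparison at 0.05. P-values measure the spread between lines, and the number of lines in a group limits the precision. The pipeline was tested on simulated data. The labels do not say how separate the 2 cultures of a line were.

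Named were the 8 lowest and 8 highest called members whose brighter side was above background, the 6 with the largest F, and members called between routes. The 8 lowest and 8 highest are given by GS line with the range of ES-like lines. Several of the others are given only as group means or differences. Members and lists were chosen with earlier results of these data known. The 14 alternatives covered other models, scalings, filters and blocks, and each line left out. Sequences are from RefSeq, GRCm38.p6, and all 60 symbols matched it.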

Additional observations from a re-analysis of the deposited data

Results flagged for a closer look

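The results below were singled out because the difference of an induced route from the mean of the other 3 routes, in which GS drops out, passed limma's adjusted p of 0.05. They are 21 differences in 17 genes, given on the log2 scale.

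In Dnmt mGS, Slc1a1 was at 2.48, Slc36a1 at 0.57 and Slc6a7 at 0.50. Lower there were Slc7a11 at -1.59, Slc1a3 at -1.19, Slc6a15 at -1.02, Slc6a17 at -0.74, Slc7a3 at -0.55, Slc38a2 at -0.53, Slc38a1 at -0.52, Slc1a6 at -0.38, Slc6a11 at -0.25 and Slc7a6 at -0.24. Every one of these 13 calls was lost without Dnmt mGS 1. The count was 4 without the line labelled Dnmt mGS 2 and 14 without Dnmt mGS 3. The share of all genes called in these refits is not given. Dnmt1 was at 620, 2752 and 647 in Dnmt mGS 1 to 3, and its part in these calls was not tested.

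In Dmrt mGS, Slc7a6 was at -0.51. In Sox2 mGS, Slc36a4 was at 1.14, Slc6a17 at 0.97, Slc7a6 at 0.42 and Slc6a11 at 0.23, and Slc38a4 at -0.93, Slc7a1 at -0.67 and Slc38a7 at -0.42. Slc7a6 was called in all 3 of these routes, with line values of 738 to 1022 over the Dnmt mGS and Dmrt mGS lines and of 1191 to 1428 over those of Sox2 mGS and Oct4 mGS. The routes share each other as the reference, so these 3 calls are not separate.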

How the results depend on the processing

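For GS against the ES-like groups and against each ES-like group, counts of called transporters stayed within 1.5 times those reported under all alternatives run, and the 16 named differences kept their call in 173 of 173 refits and in 367 of 368 with a line left out. Differences between routes kept it in 241 of 267 refits and in 426 of 483 with a line left out, and 0 differences changed sign. Counts under the alternatives are given without the share of all genes called in the same refit. A change in them is therefore not a result about transporters. With 46 arrays as independent samples, 6 transporters were called in iPS against ES, 27 (Dnmt mGS), 4 (Dmrt mGS), 21 (Sox2 mGS) and 13 (Oct4 mGS) between routes, and 42 among the ES-like groups. With the line as a random block, or the culture number as a replicate block added to it, these were 1, 21, 2, 16, 3 and 33 in both. With the feeder score as a covariate they were 2 in iPS against ES, and, between routes, 6 (Dnmt mGS), 2 (Sox2 mGS) and 1 (Oct4 mGS). Leaving out the 40% dimmest genes gave 8 in Dnmt mGS and 1 in Oct4 mGS, adding 16 before log2 gave 1 in Oct4 mGS, and fitting only the groups compared gave 0 in Dmrt mGS. With the line as a random block, the cultures of a line had a consensus correlation of 0.645. The 46 arrays are therefore not independent samples, and counts that treat them so overstate the number of samples. The cause of the shifts in the other refits was not tested.

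With each line left out in turn, counts were 28 to 35 for GS against the ES-like groups, 22 to 32 against ES, 28 to 34 against iPS, 20 to 31 for mGS, 27 to 31 for Dnmt mGS, 21 to 29 for Dmrt mGS, 26 to 33 for Sox2 mGS and 26 to 35 for Oct4 mGS against GS. They were 0 to 4 for iPS against ES, 0 to 19 for Dnmt mGS, 0 to 1 for Dmrt mGS, 2 to 10 for Sox2 mGS and 0 to 2 for Oct4 mGS against the other routes, and 16 to 25 among the ES-like groups. For Oct4 mGS the count was 1 without ES R1, GS 1, Dnmt mGS 2 or Dmrt mGS 1 and 2 without Oct4 mGS 3. Deviations of 52 same-numbered pairs of lines correlated at -0.645 to 0.795 (median 0.085). Pairs of unlike number were not set beside them, so whether clone numbers pair some lines cannot be decided. With the clone number as a replicate block (ES left out) counts were 15 (Dnmt mGS), 1 (Dmrt mGS), 10 (Sox2 mGS) and 0 (Oct4 mGS) between routes. Culture numbers correlated at -0.438 to 0.389 (median 0.003).

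Limits are the 2 or 3 lines in a group, the unknown scaling of the values, media that differ between GS and all other lines, and intensities under background, where only a bound on a fold can be given.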
